A study of Mus musculus with 80 samples.

Results

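Adenosine and purine signalling was followed through 7 genes in single cells of the mouse dorsomedial striatum. They encode 2 adenosine receptors (Adora2a and Adora1), the ADP receptor P2Y1 (P2ry1), the ectoenzymes CD39 (Entpd1) and CD73 (Nt5e), the nucleoside transporter ENT1 (Slc29a1) and adenosine kinase (Adk). The genes were chosen by name, with earlier results of these data known. All 7 were among the 25160 genes that the expression table lists. Outside the cell, CD39 cleaves ATP and ADP to AMP and CD73 cleaves AMP to adenosine. Adenosine then acts on the receptor of Adora1, which couples to inhibitory G proteins, and on that of Adora2a, which in the striatum couples to the stimulatory G protein Golf and raises cyclic AMP. ENT1 lets adenosine cross the plasma membrane, and adenosine kinase turns it back into AMP inside the cell. The Adora2a receptor is best known from the medium spiny neurons (MSN) of the indirect pathway, where it acts against the dopamine D2 receptor.

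Each sample was the cDNA of 1 cell from adult mice, heterozygous for each of the reporter transgenes Drd1a-TdTomato and Drd2-EGFP. Both are carried on bacterial artificial chromosomes, in which a dopamine receptor gene drives a fluorescent protein. The tissue around a stereotaxic injection of Hoechst dye and ink was dissociated, and cells were sorted by FACS on nuclear dye and reporter fluorescence. Of 80 cells, 40 were labelled Drd1 and 40 were labelled Drd2, and the labels name no drug or other treatment for either group. A reporter driven by the Drd2 gene also labels cholinergic interneurons, and 2 of the Drd2 cells had Chat (choline acetyltransferase) above 100 TPM. These 2 cells are given apart, so D1 MSN below are the 40 Drd1 cells and D2 MSN are the other 38 Drd2 cells. Values are TPM, a transcript abundance that is normalised for gene length and library size. The study reports a bias of its reads towards the 3′ end of transcripts, where gene annotations can differ. Levels of different genes can therefore be compared only roughly. By the study's methods the MSN came from several animals in separate experiments, but the labels tie no cell to an animal. The spread between animals is therefore not known, a group counts as 1 sample and no difference was tested. Pooled differences are set beside those within each of the 2 large plates, FACS051_5 and FACS086_4. FACS086_9 held only 1 D1 and 3 D2 MSN, too few for a fold of its own.

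Between 648 and 8657 genes per D1 MSN were above 1 TPM (median 5722), against 1215 to 7942 per D2 MSN (median 4927.5). Reads per cell cannot be had from TPM, and Hprt, a purine salvage enzyme that all cells use, was itself listed at 0 in 5 D1 and 5 D2 MSN. A value of 0 is therefore given as listed at 0. The labels were checked with marker genes. Penk was between 196 and 50135 TPM in D2 MSN and between 1.67 and 3676 TPM in D1 MSN (median 11.4), and Ppp1r1b, which encodes DARPP-32, was above 1 TPM in each MSN. The summed D1 markers (Drd1, Pdyn and Tac1) were above 100 TPM in 38 of 40 D1 and 3 of 38 D2 MSN, and the summed D2 markers (Drd2, Penk and Gpr6) in 2 D1 MSN and all D2 MSN. Drd1 was at 10 TPM or less in 4 of the 40 D1 MSN. One of them, well D04 of FACS051_5, had 2.03 TPM of Drd1 and 1.38 of Tac1, and its 4 listed astrocyte markers (Slc1a3, Gja1, Aldh1l1 and Aqp4) summed to 2654 TPM, against at most 17.6 TPM in every other D1 MSN. That cell goes against its label and was kept. The pooled Adk mean and fold are given with and without it, and other values include it. Another, well B02 of FACS086_4, had 648 genes above 1 TPM and Ppp1r1b at 1.42 TPM. None of the 7 genes was above 1 TPM in it. Among D2 MSN, well A12 of FACS086_9 had Tac1 at 1218 TPM, Penk at 196 TPM and Drd2 listed at 0. Its D2 markers summed to 464 TPM, and 1215 genes were above 1 TPM. That D2 cell had Adora2a at 62.9 TPM and was kept under its label.

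Promoter sequence was at hand for 6 of the 7 genes, and for Adora2a it was not. Shown here are the 250 bases before the RefSeq start site (GRCm38.p6, 5′ to 3′ on the strand of the gene) of P2ry1, whose mean was higher in D2 MSN, and of Adora1, which both groups had at similar frequency. Both windows lie outside the annotated exons of their genes. Capitals mark the GC box (GGGCGG, either strand).
P2ry1, chr3:61002535-61002784, plus strand: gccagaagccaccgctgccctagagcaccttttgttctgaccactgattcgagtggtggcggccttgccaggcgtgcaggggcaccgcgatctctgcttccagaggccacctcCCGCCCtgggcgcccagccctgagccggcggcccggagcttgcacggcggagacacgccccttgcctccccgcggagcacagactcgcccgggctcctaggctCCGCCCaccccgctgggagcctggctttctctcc
Adora1, chr1:134235458-134235707, minus strand, 1 of 2 windows: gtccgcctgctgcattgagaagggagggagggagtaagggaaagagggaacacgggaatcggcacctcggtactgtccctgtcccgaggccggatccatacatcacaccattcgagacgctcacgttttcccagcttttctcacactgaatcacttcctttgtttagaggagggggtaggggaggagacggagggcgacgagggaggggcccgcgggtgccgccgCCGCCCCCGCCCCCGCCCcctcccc
The P2ry1 window held 2 GC boxes, and the Adora1 window held 3, of which each follows the last without a gap. Neither window held TATAAA, the TATA box, on either strand. The letters CCAAT were absent from both, and so was TGACG, the core of a cyclic AMP response element. Of all 32536 promoter windows of this length, 33.0% held a GC box, 12.3% a TATA box, 33.8% a CCAAT box and 17.9% the core of a cyclic AMP response element. These matches describe the letters of the windows and were not tied to the expression values.

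Of the 7 genes, 4 had a log2 fold (D1 over D2 MSN, of the mean TPM plus 1) below -1, namely Adora2a, Nt5e, P2ry1 and Adk, all with the higher mean in D2 MSN. Among all 15671 genes that averaged at least 1 TPM over the MSN, 14.8% had a fold below -1. Only Entpd1 had a fold above 1, and 21.1% of all genes did. Adora1 and Slc29a1 lay between these limits. The median fold was -1.98 over the 7 genes and 0.09 over all genes. The 7 genes were chosen with earlier results known, and the study itself names Adora2a and P2ry1 as D2 MSN genes. Their counts and median beside those of all genes are therefore no test. On both large plates the fold was below -1 for Adora2a, Nt5e and P2ry1, whereas Adk, Adora1, Slc29a1 and Entpd1 had folds of differing sign or size between the plates, or no fold on one of them.

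**Figure D1:**
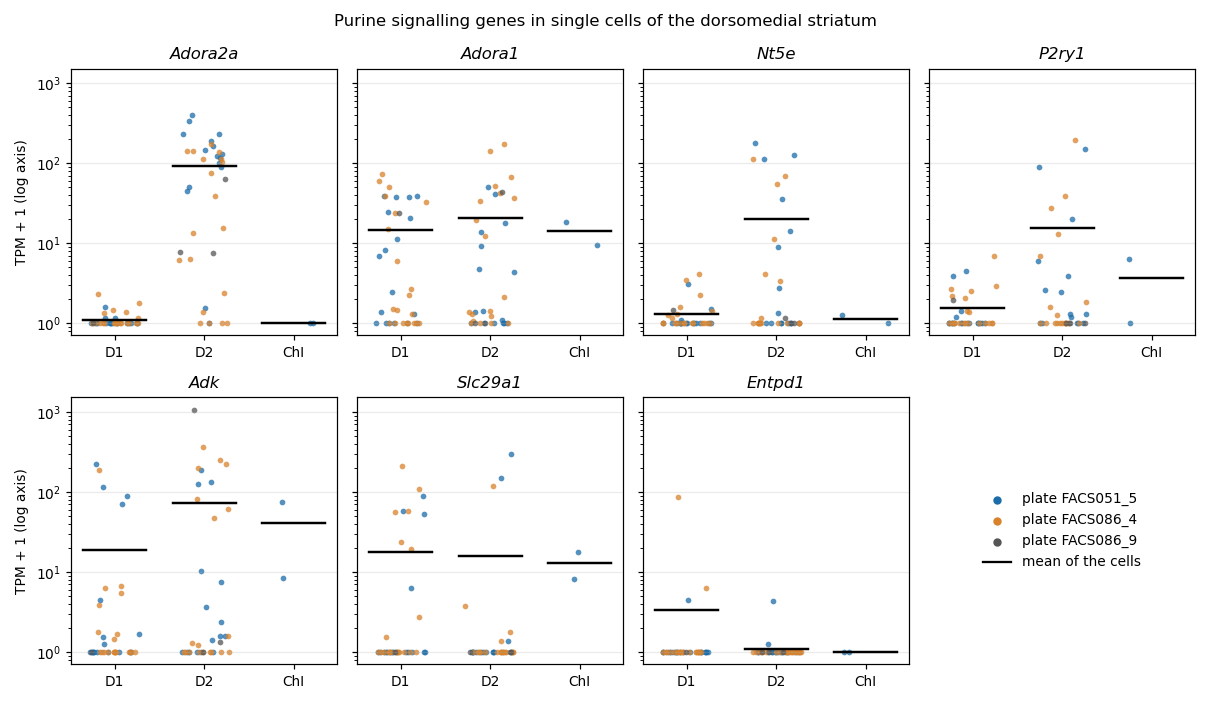
TPM plus 1 (log axis) of each gene in every cell, by D1 MSN (40), D2 MSN (38) and cholinergic interneurons (ChI, 2 cells). Points are cells coloured by plate with random sideways offsets, those at the bottom are listed at 0 TPM, and the black line is the mean. Adora2a stands between 0 and 1.29 TPM in the D1 MSN and reaches 403 TPM in the D2 MSN.

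Adora2a, the adenosine receptor that acts against the D2 receptor, lies at chr10:75316877-75334784 on the plus strand (GENCODE M21, GRCm38). In D1 MSN, Adora2a ran from 0 TPM to 1.29 TPM with a median of 0, and 31 of the 40 cells were listed at 0. In D2 MSN it ran from 0 to 403 TPM with a median of 80.9 TPM. All 31 D2 MSN above 1 TPM were also above the highest D1 MSN, whereas the other 7 D2 MSN overlapped with the D1 MSN. The transcript exceeded 1 TPM in 1 of 40 D1 cells (2.5%, exact 95% interval 0.0633% to 13.2%) and in 31 of 38 D2 cells (81.6%, 65.7% to 92.3%). Such intervals cover counting error only. No D1 MSN exceeded 10 TPM, and 26 D2 MSN did. The means were 0.108 and 91.9 TPM, a log2 fold of -6.39. On FACS051_5 the means were 0.0511 and 147 TPM (fold -7.13), and on FACS086_4 they were 0.162 and 56.3 TPM (fold -5.62). The D2 MSN of the first plate thus had the higher Adora2a level, and on both plates the D1 mean was under 1 TPM, where the size of a fold depends on the pseudocount. In both cholinergic interneurons, which have Drd2 at 97.2 and 79.5 TPM, Adora2a was listed at 0.

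In 7 D2 MSN, Adora2a was at 1 TPM or less, 2 of them on FACS051_5 and 5 on FACS086_4. All 7 had Penk, the enkephalin precursor, at between 1580 and 12539 TPM (median 7052), and the median of the other 31 D2 MSN was 11214 TPM. Gpr6, a receptor gene of D2 MSN, was above 1 TPM in 5 of the 7, and Drd2 was in 4. Their Penk thus lay within the range of the other D2 MSN. One of these cells, in well A02 of FACS086_4, had 459 TPM of Drd2, 111 TPM of Gpr6 and 5513 genes above 1 TPM, and Adora2a was listed at 0. The 7 cells had a median of 3259 genes above 1 TPM, against 5627 in the 31 others. The part of RNA content or library quality in the missing Adora2a was not tested. Their EGFP fluorescence in the sort had a median of 811 arbitrary units, against 870 in the others. Among cells with 4000 to 7000 genes above 1 TPM, 20 of 22 D2 MSN (90.9%, 70.8% to 98.9%) and 1 of 26 D1 MSN (3.85%, 0.0973% to 19.6%) had Adora2a above 1 TPM.

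**Figure D2:**
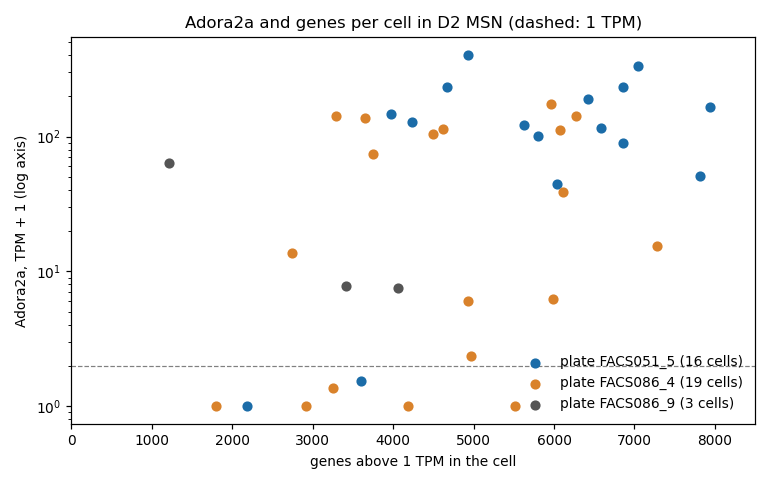
Adora2a (TPM plus 1, log axis) against the number of genes above 1 TPM in each of the 38 D2 MSN, coloured by plate, with the dashed line at 1 TPM. The 7 cells under the line have between 1802 and 5513 genes, and cells with more than 5513 genes are all above it.

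Adora2a was above 1 TPM in 31 D2 MSN and Drd2 itself in 26. Of the 38 D2 MSN, 22 had both Adora2a and Drd2 above 1 TPM, 9 had Adora2a without Drd2, 4 had Drd2 without Adora2a and 3 had neither. Adora2a and Gpr6 were together in 25 cells, and 2 cells had neither. In D1 MSN, the 1 cell with Adora2a above 1 TPM was well B10 of FACS086_4, with 103 TPM of Drd1 and Drd2 listed at 0.

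Adora1, the inhibitory adenosine receptor, lies at chr1:134199223-134235431 on the minus strand. It ran from 0 to 71.5 TPM in D1 MSN (median 1.35) and from 0 to 171 TPM in D2 MSN (median 0.407). The groups overlapped, with 2 D2 MSN above the highest D1 MSN. It passed 1 TPM in 21 of 40 D1 cells (52.5%, 36.1% to 68.5%) and in 18 of 38 D2 cells (47.4%, 30.98% to 64.2%). The means were 13.4 and 19.7 TPM, a log2 fold of -0.52. This fold took opposite signs on the large plates, 0.47 on FACS051_5 (12.1 and 8.46 TPM) and -1.04 on FACS086_4 (14.1 and 30.1 TPM). In the cholinergic interneurons, Adora1 was at 17.5 and 8.56 TPM, within the range of the MSN. Exons of Adora1 share 1162 bases with Mybph on the other strand in this annotation. The cDNA kit does not mark strand, so their reads cannot be told apart there, and Mybph was not analysed here.

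Among D2 MSN, most cells with Adora1 also had Adora2a. Both were above 1 TPM in 17 cells, Adora2a alone in 14, Adora1 alone in 1 and neither in 6. In D1 MSN, 20 cells had Adora1 without Adora2a and 1 cell had both. D2 MSN with Adora1 above 1 TPM had a median of 5976 genes, and those without had 4210. For Adora2a these medians were 5627 and 3259. How far genes per cell account for the shared cells was not tested.

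P2ry1 encodes P2Y1, a receptor for ADP that couples to Gq, and lies at chr3:61002795-61008982 on the plus strand. In D1 MSN it ran from 0 to 5.87 TPM and in D2 MSN from 0 to 191 TPM, with a median of 0 in both. P2ry1 passed 1 TPM in 8 of 40 D1 cells (20%, 9.05% to 35.6%) and in 12 of 38 D2 cells (31.6%, 17.5% to 48.7%), and these intervals overlap. The groups differed more in level than in share, since 7 D2 MSN and 0 D1 MSN exceeded 10 TPM, and the same 7 cells were above the highest D1 MSN. The means were 0.546 and 14.3 TPM, a log2 fold of -3.31. Within plates the fold was -3.68 on FACS051_5 and -3.22 on FACS086_4. The D2 mean rested on few cells, with 78.9% of the summed TPM in the 3 highest. Without the highest cell of each group, the means were 0.410 and 9.52 TPM and the fold -2.90. Of the 12 D2 MSN with P2ry1 above 1 TPM, all 12 had Adora2a above 1 TPM too, beside 31 of all 38 D2 MSN. Of the cholinergic interneurons, one had 5.42 TPM and the other was listed at 0. Exons of P2ry1 share 992 bases with the antisense gene Gm37035, which was listed at 0 in all D1 MSN and was above 1 TPM in 1 D2 MSN, and reads from the pair cannot be told apart.

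Nt5e encodes CD73, the enzyme that makes adenosine from extracellular AMP, and lies at chr9:88327197-88372092 on the plus strand. Values in D1 MSN ran from 0 to 3.11 TPM and in D2 MSN from 0 to 177 TPM, with medians of 0. CD73 transcript passed 1 TPM in 4 of 40 D1 cells (10%, 2.79% to 23.7%) and in 13 of 38 D2 cells (34.2%, 19.6% to 51.4%). Of the 38 D2 MSN, 11 were above the highest D1 MSN, and 9 exceeded 10 TPM, which 0 D1 MSN did. The means were 0.293 and 19.1 TPM, a log2 fold of -3.96. On FACS051_5 the fold was -4.74 (0.150 and 29.7 TPM) and on FACS086_4 it was -3.33 (0.409 and 13.1 TPM). As with P2ry1, most D2 MSN were at 0 or near it, and 57.5% of the summed TPM lay in 3 cells. Of the 13 D2 MSN with Nt5e, 11 had Adora2a above 1 TPM, beside 31 of all 38. Nt5e and P2ry1 shared 6 D2 MSN, 7 had Nt5e alone, 6 had P2ry1 alone and 19 had neither. The cholinergic interneurons had 0 and 0.272 TPM. D2 MSN with Nt5e above 1 TPM had a median of 6423 genes and those without had 4187. In the range of 4000 to 7000 genes, 9 of 22 D2 MSN (40.9%, 20.7% to 63.6%) and 4 of 26 D1 MSN (15.4%, 4.36% to 34.9%) had Nt5e, with overlapping intervals.

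Myelin genes, which mark oligodendrocytes, had higher medians in the D2 MSN with these transcripts than in the other D2 MSN. Summed over Mbp, Mag and Mobp, the median was 20.7 TPM (0 to 84.8) in the 9 D2 MSN with Nt5e above 10 TPM and 0.0828 TPM (0 to 79.6) in the other 29. For P2ry1 it was 21.4 TPM (0.0828 to 84.8) in the 7 D2 MSN above 10 TPM and 0.124 TPM (0 to 79.6) in the other 31. The sums of the cells with and without each gene thus overlapped over most of their range. For Adora2a the medians were 1.45 TPM in the 26 D2 MSN above 10 TPM and 0 in the other 12. Genes per cell moved the same way, with medians of 6590 against 4233 for Nt5e, 6279 against 4617 for P2ry1 and 5887 against 3828 for Adora2a. D1 MSN, in which none of the 3 genes exceeded 10 TPM, had a myelin sum of 0 to 244 TPM (median 1.89), above 10 TPM in 15 of 40 cells. The 244 TPM was in the D1 cell with high astrocyte markers described above. In D2 MSN the myelin sum ran from 0 to 84.8 TPM (median 0.355), above 10 TPM in 13 of 38 cells. The part of oligodendrocyte RNA and of genes per cell in the 3 results was not tested.

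Entpd1 encodes CD39, the enzyme upstream of CD73, and lies at chr19:40612366-40741602 on the plus strand. Only 3 of 40 D1 cells passed 1 TPM, at 85.9, 5.38 and 3.47 TPM, and 1 of 38 D2 cells did, at 3.28 TPM. Its means were 2.37 and 0.0933 TPM, and the log2 fold of 1.62 rested on well C07 of FACS086_4, which held 90.7% of the D1 total. Entpd1 was listed at 0 in all 19 D2 MSN of FACS086_4, so there is no fold on that plate, and on FACS051_5 the fold was -0.03. With FACS086_4 left out it was -0.0048, and without the highest cell of each group it was 0.28. The cell in well C07 had 259 TPM of Drd1, 1349 TPM of Tac1 and a D1 MSN profile. CD39 is known in brain chiefly from microglia and blood vessels. In that cell the microglial marker Cx3cr1 was at 1.86 TPM and Csf1r was listed at 0. The endothelial markers Flt1 and Pecam1 summed to 48.6 TPM. Over all MSN that sum ran from 10.8 to 277 TPM and was nearly all Pecam1, which was above 10 TPM in every MSN, whereas Flt1 was above 1 TPM in 3 D1 and 3 D2 MSN. In both cholinergic interneurons Entpd1 was listed at 0.

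Slc29a1 encodes ENT1, the equilibrative transporter that carries adenosine down its gradient, and lies at chr17:45585200-45599606 on the minus strand. In D1 MSN it ran from 0 to 211 TPM and in D2 MSN from 0 to 299 TPM, with medians of 0. ENT1 transcript passed 1 TPM in 11 of 40 D1 cells (27.5%, 14.6% to 43.9%) and in 4 of 38 D2 cells (10.5%, 2.94% to 24.8%). The intervals overlap, and the 3 highest D2 MSN held 99.3% of the D2 total. The means of 17.0 and 15.03 TPM were close (log2 fold 0.17), yet on FACS051_5 the D2 mean was the higher (11.4 and 28.0 TPM, fold -1.23) and on FACS086_4 the D1 mean was (22.6 and 6.47 TPM, fold 1.66). No direction can be given for Slc29a1. The cholinergic interneurons had 7.15 and 16.9 TPM. An antisense gene, Gm17080, shares 275 exon bases with Slc29a1 and was not analysed here.

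Adk encodes adenosine kinase, the main route of adenosine removal inside cells, and lies at chr14:21052574-21448569 on the plus strand. In D1 MSN it ran from 0 to 223 TPM with a median of 0, and in D2 MSN from 0 to 1074 TPM with a median of 0.368. Adk passed 1 TPM in 10 of 40 D1 cells (25%, 12.7% to 41.2%) and in 15 of 38 D2 cells (39.5%, 24.0% to 56.6%), with overlapping intervals. The means were 17.8 and 72.9 TPM, a log2 fold of -1.98. The fold was -2.58 on FACS086_4 (9.98 and 64.9 TPM), but on FACS051_5 it was -0.05 (27.8 and 28.9 TPM). Adult brain is known to have most of its adenosine kinase in astrocytes, and the highest D1 value, 223 TPM, was in the D1 cell with astrocyte markers described above. Without that cell the D1 mean was 12.5 TPM and the log2 fold -2.45. It held 44.5% of the D1 total on FACS051_5, and the fold on that plate was not computed without it. The highest D2 value, 1074 TPM, was in well A04 of FACS086_9 and made up 38.78% of the D2 total. In that cell the listed astrocyte markers summed to 3.60 TPM, all of it Aqp4, with Gja1, Aldh1l1 and Slc1a3 at 0. Over the 11 D2 MSN with Adk above 10 TPM the astrocyte sum ran from 0 to 4.53 TPM, with a median of 1.501 TPM. Over the other 27 D2 MSN it ran from 0 to 45.5 TPM, with a median of 0. The second highest astrocyte sum of all D2 MSN was 8.11 TPM. The cells with Adk thus had the higher median and the lower maximum. The part of astrocyte RNA in the Adk values of D2 MSN was not tested. Leaving out the highest cell of each group gave 12.5 and 45.8 TPM and a fold of -1.79. The cholinergic interneurons had 73.3 and 7.50 TPM.

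**Figure D3:**
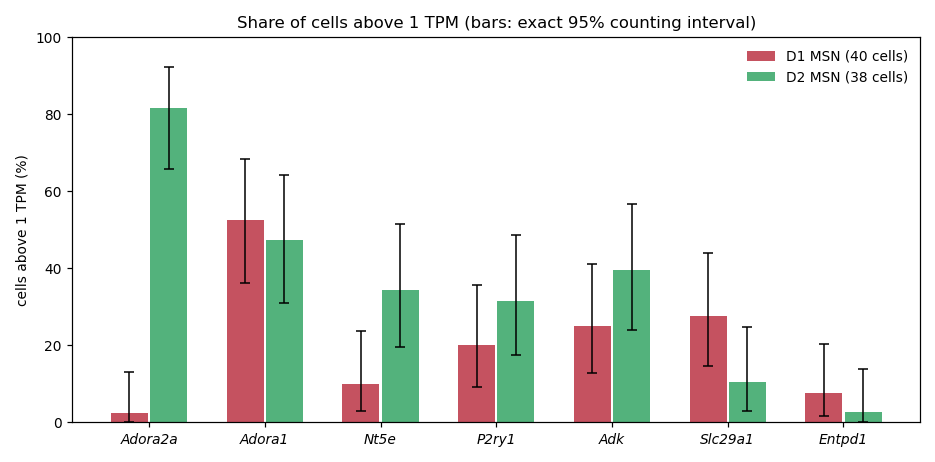
Share of the 40 D1 MSN and the 38 D2 MSN with each gene above 1 TPM, in percent, with exact 95% intervals that cover counting error only. The interval of D2 MSN for Adora2a (65.7% to 92.3%) lies wholly above that of D1 MSN (0.0633% to 13.2%), and for the other 6 genes the intervals overlap.

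**Figure D4:**
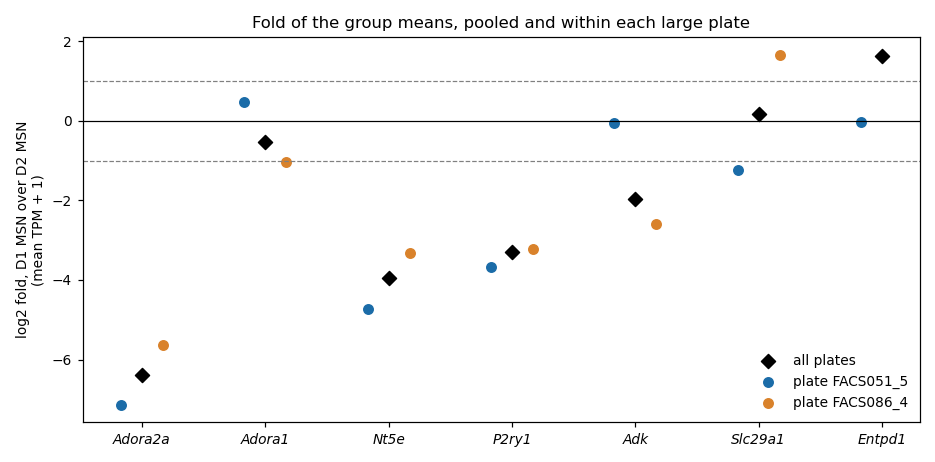
Log2 fold of D1 over D2 MSN (mean TPM plus 1) for each gene, over all plates (black diamonds) and within each of the 2 large plates (coloured points), with dashed lines at -1 and 1. Adora2a, Nt5e and P2ry1 are below -1 on both plates, Adora1 and Slc29a1 take opposite signs, and Entpd1 has no point for FACS086_4.

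Ordered by mean level, D2 MSN had Adora2a (91.9 TPM), Adk (72.9), Adora1 (19.7), Nt5e (19.1), Slc29a1 (15.03), P2ry1 (14.3) and Entpd1 (0.0933). D1 MSN had Adk (17.8 TPM), Slc29a1 (17.0), Adora1 (13.4), Entpd1 (2.37), P2ry1 (0.546), Nt5e (0.293) and Adora2a (0.108). Each gene was listed at 0 in at least 5 cells of either group, so all neighbours in these orders overlapped over cells. An order of different genes is limited further by the 3′ bias of the reads. The order also changed between plates. In D2 MSN, Adora2a came first on FACS051_5 and Adk came first on FACS086_4, while Entpd1 was last on both. Among D1 MSN, Adora2a was last on both large plates and Nt5e was last but one. The number of the 7 genes above 1 TPM in a cell had a median of 1 in D1 MSN (0 to 4) and of 2 in D2 MSN (0 to 6). Leaving Adora2a out of the count, the median was 2 other genes in the 31 D2 MSN with Adora2a and 1 in the 7 without.

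Of 48 purine genes in a wider set of lists, 34 were in the table. The 27 that are not among the 7 genes had a median fold of 0.02 over the 20 with a fold. Of these 27, 15 averaged at least 1 TPM over the MSN, the limit used for all genes, and their median fold was 0.55 over the 13 with a fold, beside 0.09 over all genes. Among these 13, 3 were below -1 (P2rx4, P2ry14 and Pnp), where 14.8% of all genes were. Above 1 were 2 (Slc29a2 and Nt5c2), where 21.1% of all genes were. The median and shares over all genes also include genes at 0 throughout a group, so they follow another rule. Adora2b and Entpd2, the 2 of the 15 without a fold, were at 0 in all D2 MSN. Their D1 means plus 1 were 3.30 and 3.25 times the D2 values, which the rule for all genes counts as above 1. The count below -1 is near the share over all genes, and the count above 1 depends on the rule. Of the P2X receptors, the ATP-gated channels, 3 were listed. P2rx4 ran from 0 to 38.1 TPM in D1 MSN (median 1.10) and from 0 to 287 TPM in D2 MSN (median 3.23), with 20 of 40 and 24 of 38 cells above 1 TPM. Its means of 3.18 and 21.9 TPM gave a fold of -2.45, which was -3.25 on FACS051_5 and -2.02 on FACS086_4, and the 3 highest D2 MSN held 72.6% of the total. P2rx7 was above 1 TPM in 8 D1 and 9 D2 MSN with a fold of -0.16, and P2rx3 was above 1 TPM in 1 D1 MSN. Beside P2ry1, the P2Y receptors P2ry4, P2ry6 and P2ry14 were above 1 TPM in at most 5 cells of either group. The remaining adenosine receptors were also rare, with Adora3 above 1 TPM in 7 D1 and 6 D2 MSN and Adora2b in 1 D1 MSN. P2ry14, a receptor for UDP sugars, was above 1 TPM in 1 D1 and 3 D2 MSN, and 1 D2 MSN at 316 TPM held 98.9% of the D2 total behind its fold of -2.99.

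Of the other ectonucleotidases, Enpp1 was found most often. Entpd3, which like CD39 cleaves nucleotides outside the cell, was above 1 TPM in 4 D1 and 5 D2 MSN with a fold of 0.82. Enpp1, which splits ATP into AMP and pyrophosphate, passed 1 TPM in 16 D1 and 12 D2 MSN at means of 0.986 and 0.908 TPM, a fold of 0.06. Entpd2 did so in 1 D1 MSN, and Acpp, an acid phosphatase that cleaves AMP, in 2 D1 and 5 D2 MSN. Among the nucleoside transporters beside ENT1, Slc29a2, which encodes ENT2, was above 1 TPM in 3 D1 and 2 D2 MSN with a fold of 1.33.

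Inside the cell, Hprt had the highest mean of the listed purine genes in both groups. Hprt, which recycles hypoxanthine and guanine, had means of 223 and 279 TPM in D1 and D2 MSN (fold -0.32) and was above 1 TPM in 34 and 31 cells. Aprt, which recycles adenine, had means of 68.8 and 45.5 TPM (fold 0.59) in 14 and 12 cells above 1 TPM. Ampd2, an AMP deaminase, had means of 11.5 and 6.34 TPM (fold 0.77). Nt5c2, a cytosolic nucleotidase, had a fold of 1.10, which was -0.42 on FACS051_5 and 2.62 on FACS086_4. Ahcy, which splits S-adenosylhomocysteine into adenosine and homocysteine, had a fold of 0.55 that changed sign between the plates, 1.29 and -0.97. For Pnp, a purine nucleoside phosphorylase, the fold of -1.06 came from 1 D2 MSN at 519 TPM, and only 3 D1 and 2 D2 MSN were above 1 TPM. Of the ATP release genes, Panx1, a large-pore channel, had means of 25.8 and 14.9 TPM, with a fold of 1.64 on FACS051_5 and -1.96 on FACS086_4. Of the genes beside the 7 that have a fold on both large plates, P2rx4 was the one below -1 on both, and none was above 1 on both.

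**Figure D5:**
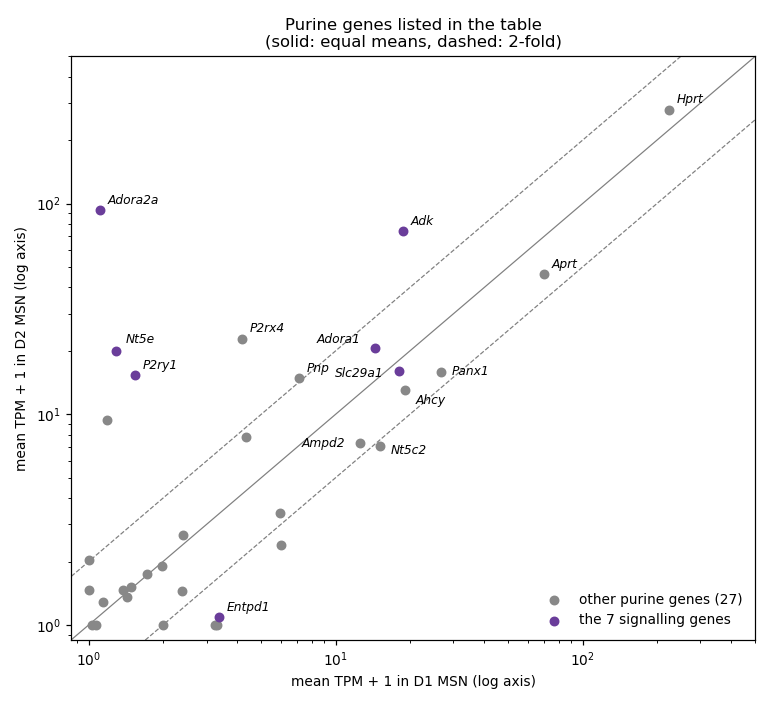
Mean TPM plus 1 in D1 MSN against D2 MSN (both log axes) for the 34 listed purine genes, with the solid line at equal means and the dashed lines at a 2-fold difference. Purple points are the 7 signalling genes, and names are given for these and for genes averaging at least 10 TPM in either group. Adora2a, Nt5e, P2ry1 and P2rx4 lie far above the solid line, and Hprt, Aprt and Adora1 lie near it. P2ry14, which is not named in the plot, also lies far above it, mostly through 1 D2 MSN. Adk lies above the upper dashed line as well.

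The genes most like each of the 7 across the MSN were taken by Pearson r of log2(TPM plus 1), among genes that passed 1 TPM in at least 25% of the 78 cells. For Adora2a these were Penk (r = 0.77), Gpr6 (0.68) and Gnas (0.63), and the 99th percentile of r over the 7768 genes compared was 0.31. Penk and Gpr6 are themselves marker genes of D2 MSN. Within the 38 D2 MSN their r with Adora2a was 0.31 and 0.23, lower than over all cells. Gnas, which encodes the stimulatory G protein alpha subunit Gs, averaged 12.7 TPM in D1 and 98.6 TPM in D2 MSN, and its r within D2 MSN was 0.52. Over the D2 MSN alone, Hlf (r = 0.64), Fbxl16 (0.63) and Klhl2 (0.63) came first, beside a 99th percentile of 0.50. Cells share their plate and differ in the number of genes found, so these r are descriptions and carry no test.

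For Adora1 the nearest genes were Rims1 (r = 0.57), Tdg (0.50) and Nckap1 (0.49). Nt5e was nearest to Tmem41a (0.59), Blcap (0.53) and Ubr1 (0.52), and its r with Ubr1 within D2 MSN was 0.80. For P2ry1 the nearest were RP23-61O10.1 (0.53), Kat7 (0.53) and RP23-300I4.1 (0.51). Adk was nearest to Gm10359 and Gm12671, which share 1 row of values (r = 0.50) and whose reads may thus be shared, and to Mfge8 (0.48). Slc29a1 was nearest to Gm20337 (0.53), Tmed5 (0.41) and Gm42729 (0.41). Entpd1 was above 1 TPM in too few cells for such a list. None of the 7 genes appeared in the list of another.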

How the data were processed

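The authors made the cDNA of each cell with a kit for ultra-low input that does not mark strand, and sequenced it in paired reads. Per the study's methods and processing notes, reads were demultiplexed with bcl2fastq 2.18, aligned with STAR 2.5.0 to mm10/GRCm38 with the reporter sequences added, and counted per gene with featureCounts 1.5.1. The TPM values analysed here were deposited by the authors, and how they made the TPM from the counts is not given in the sources used here. TPM keep no read depth, so neither the depth per cell nor a detection limit is known. The methods name fewer cells with usable data than the table holds without naming them, and all 80 were kept. The columns of the listed genes sum to between 506588 and 958040 TPM.

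For a log2 fold, 1 was added to each group's mean TPM and the D1 value was divided by the D2 value, so a fold understates the change of low genes. For the 7 genes and the purine lists, no fold was given where a group was at 0 throughout. The median and shares over all genes include such genes. Shares are of cells above 1 TPM, with exact Clopper-Pearson 95% intervals. No test was made, since cells are not replicates and the labels tie no cell to an animal. The 2 cells with Chat above 100 TPM were left out of D2 MSN, as the study left out its cholinergic interneurons. The 7 genes, the purine lists, the marker lists and the Chat limit were chosen with earlier results of these data known. Named genes were the 7, the list genes averaging at least 10 TPM in either group, and, for each of the 7 above 1 TPM in at least 10 MSN, the 3 genes with the highest r. Rarer list genes were named outside this rule, with their values known, to complete the families. Marker lists covered D1 and D2 MSN, MSN, cholinergic interneurons, astrocytes, oligodendrocytes, microglia and endothelial cells. Of the oligodendrocyte markers, Mbp was above 1 TPM in 16 D1 and 12 D2 MSN, Mag in 8 and 6, and Mobp in 3 and 1. The microglial markers Cx3cr1 and Csf1r summed to medians of 0.340 TPM in D1 and 0 in D2 MSN. Other members of these lists are not reported here. Gene positions are those of GENCODE M21 (GRCm38), a later annotation than the authors used. Promoter windows came from RefSeq, and those in annotated exons, such as that of Nt5e, are not shown. Alternatives changed the pseudocount, the mean, the scaling, the cells, the plates and the limits. After seeing the data, 2 were added, namely leaving out the cell with astrocyte markers and leaving out the highest cell of each group. The log2 fold was tested on simulated data, and the other steps were not. Scripts ran under Python 3.11.15 with scipy 1.17.1, pandas 2.3.3 and numpy 2.4.6, and plots were drawn with matplotlib 3.10.9.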

Additional observations from a re-analysis of the deposited data

How the results depend on the processing

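Of 76 values of the 7 folds under the alternatives, 64 moved by less than the spread between the large plates (SD of both plate folds), 11 moved by more, and 1 fold past the limit of 1 changed sign. For Entpd1, which has a fold on 1 large plate only, the gap between that and the pooled fold stood in for the spread. The spread was 2.04 for Slc29a1 and 0.325 for P2ry1, so a gene whose plates differ had a wider limit. It also rests on the same plates as the values with a plate left out. These counts therefore do not measure how firm the folds are. With a pseudocount of 0.1 TPM the log2 fold (D1 over D2 MSN) was -8.79 for Adora2a, -5.61 for Nt5e, -4.48 for P2ry1 and 3.67 for Entpd1. With 10 TPM it was -3.33 for Adora2a, -1.50 for Nt5e and -1.20 for P2ry1, and 0 of the 7 genes were above 1. As a difference of mean log2(TPM plus 1) the values were -4.82 for Adora2a, -1.38 for Nt5e and -0.98 for P2ry1, again with 0 genes above 1. The changes with the pseudocount follow from its construction, since 1 of the group means of each of these genes is under 1 TPM, and the cause of the change with the mean of logs was not tested. With plate FACS086_4 left out Entpd1 was at -0.0048, and 0 genes were above 1. Slc29a1 was then at -1.06 and Adora1 at 0.40, both with the opposite sign to their pooled folds, which were within 1 of 0. Without FACS051_5, Slc29a1 was at 1.78 and Adk at -3.33. The cause was not tested. With the highest cell of each group left out, P2ry1 was at -2.90 and 0 genes were above 1. Entpd1 had no value with plate FACS051_5 left out, since the D2 MSN that remain are at 0. Of 28 shares of cells at limits of 0 or 10 TPM, 9 moved outside the interval at 1 TPM, among them Adora2a in D1 MSN, with 22.5% of cells above 0 TPM. With genes of at least 10 TPM as background, 9.58% of all genes had a fold below -1 and 12.4% had one above 1. Plate and animal cannot be told apart. No paired test was made, since the labels give cells no replicate numbers and tie no cell to an animal. The folds within the plates that both groups share are given beside each pooled fold.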
